A study of Mus musculus with 5 samples.

Results

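The solute carrier (Slc) transcripts of mouse cardiac fibroblasts (CF) were examined in SLAMseq libraries, which record for each 3′ end how often a T of the reference was read as C. Of 375 gene names that begin with Slc and a family number, 127 had at least 100 covered T positions in each of the 3 labeled libraries on the gene's interval with the highest mean CPM, and these 127 are the members described here. Members were therefore chosen by the coverage and level in the labeled libraries, so that a high level or coverage is no result for them. The T>C conversion rate did not enter the choice. In all, 20365 gene names were counted and 8402 had the same coverage. The members fall into 40 families, of which 10 have 4 or more members and 17 have 1 member. For 124 of the 127 the family number stands for a carrier, and the other 3 (Slc4a1ap, Slc7a6os and Slc9a3r2) carry the name of a carrier without being one.

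CF were isolated from the hearts of healthy adult male C57Bl/6J wildtype mice by perfusion with collagenase and grown to confluency, so the values describe expanded cells in culture and not the intact heart. The labeled group (n = 3) received 0.1 mM of the uridine analog 4-thiouridine (S4U) for 12 h. The unlabeled group (n = 2) was kept in parallel for 12 h without S4U. All RNA was alkylated with iodoacetamide, and both groups share the strain, sex, isolation and medium. The labels give replicate numbers only, so p-values measure the spread between these libraries. In the text, values of labeled libraries are listed in the order 1, 2, 3 and those of unlabeled libraries in the order 1, 2.

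Solute carriers are membrane proteins that move amino acids, sugars, nucleotides, metals and ions across the plasma membrane and the membranes of organelles, by facilitated diffusion or by exchange and cotransport along ion gradients. In fibroblasts they supply the amino acids and nucleotide sugars from which collagen and proteoglycans are made. S4U enters only RNA made after it is added, and after alkylation its position is copied as a C in place of a T. The T>C rate of a transcript, its conversions divided by its covered T positions, therefore rises with the share of molecules made during labeling.

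Between 506045 reads (labeled 3) and 1843033 reads (unlabeled 1) were counted on 1 interval per gene, and the members took 0.984% to 1.08% of them in the 5 libraries. Labeled 3 had the lowest depth and gave the least precise rates. Markers of fibroblasts summed to between 31052 and 41977 CPM (reads relative to 1000000 reads counted on 1 interval per gene), those of endothelial cells to between 92.9 and 187, of macrophages to at most 85.4, of mural cells to at most 15.8, of the epicardium to at most 7.90 and of cardiomyocytes to between 0.634 and 8.03. The cardiomyocyte marker Ryr2 was at 0 reads in all 5 libraries. For 33 members both libraries numbered 1 lay above the other 3 in level and for 36 they lay below, compared with 29.6% and 23.6% of all genes with the same coverage, so the 2 libraries numbered 1 share a pattern that the labels do not name.

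The rates are read at T positions close to the polyadenylation site, and windows of 30 bases around the last AATAAA signal of the interval show which letters were available (GRCm39, AATAAA in capitals). The first 3 belong to members with high rates, the next 2 to members with low rates, and the last 2 to the ADP/ATP carriers, which were among the members with the highest levels.
Slc6a6, chr6:91736006-91736035, plus strand: ttgtaacacaacAATAAAcatttccttttt
Slc35a1, chr4:34663258-34663287, minus strand: gggaaatccagcAATAAActtatttctacc
Slc39a14, chr14:70540918-70540947, minus strand: taagattctataAATAAAgctatattctgt
Slc2a10, chr2:165361801-165361830, plus strand: agtgtattttgaAATAAAttattttgagca
Slc20a1, chr2:129053496-129053525, plus strand: acctcttaactgAATAAAaagcctacagtt
Slc25a4, chr8:46660212-46660241, minus strand: gtgtgactcattAATAAAgactactcaata
Slc25a5, chrX:36062429-36062458, plus strand: aaaaattgaagaAATAAAaatacccaaaac
The window of Slc6a6 held 12 T and that of Slc35a1 8, those of Slc2a10 and Slc20a1 13 and 8, and those of Slc25a4 and Slc25a5 9 and 4. High and low rates thus stood beside both T-rich and T-poor windows in these examples.

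The T>C rate of the members was centred where that of other genes was, with quartiles about as far apart but without the tail of low rates. The median over the 127 members was 0.0386 conversions per covered T (quartiles 0.0349 and 0.0436), against 0.0384 (quartiles 0.0336 and 0.0425) over the 8402 genes with the same coverage. The median member had a rate of 0.0386, 0.0394 and 0.0391 in the 3 labeled libraries. No member had a mean rate below 0.025, the range that held 640 genes (7.62%) of the 8402, and 8 members (6.30%) lay above 0.05, compared with 4.08% of genes. The SD of mean rates was 0.0062 over the members and 0.0085 over all genes. Pooled over their covered T positions, the members had rates of 0.0400, 0.0392 and 0.0397, and all genes had 0.0347, 0.0351 and 0.0348. Pooled values weight each gene by its covered T.

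**Figure D1:**
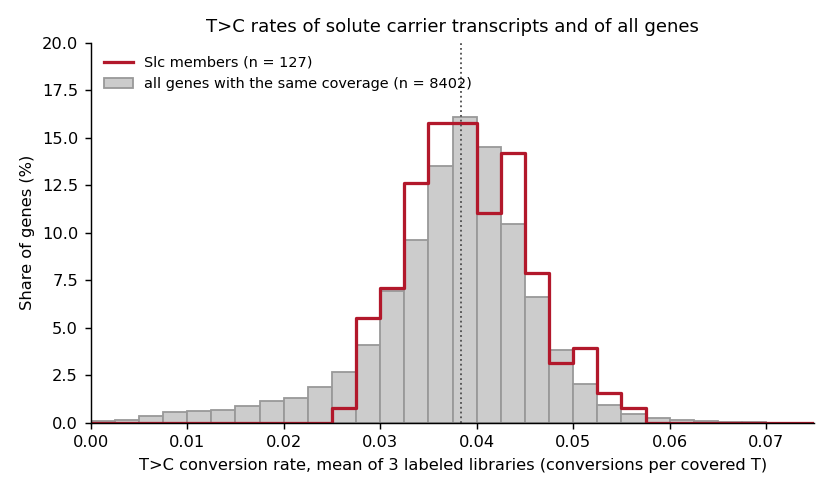
Histogram of the T>C conversion rate (mean of 3 labeled libraries, conversions per covered T, bins of 0.0025) for 127 Slc members (red line) and for the 8402 genes with the same coverage (grey bars), as a share of genes in each bin. The dotted line is the median gene at 0.0384, and the members lack the tail below 0.025 that holds 7.62% of genes.

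The members were all labeled above background. All 127 had a higher rate in each labeled library than in either unlabeled library. The beta-binomial test (two-sided, unadjusted p below 0.05) called 127 of 127 higher. It called 94.6% of the 19240 intervals tested, which include intervals with far less coverage than the members. With 1000 covered T positions in every library, it called 3154 of 3156 intervals and 30 of 30 members, so the members did not stand out. Unlabeled rates pooled over the members were 0.00106 and 0.000560. Neither unlabeled library had a conversion in 40 members, among them the glucose carrier Slc2a1, for which 0 of 5066 covered T allows a rate of up to 0.000592 (3 counts of the total, counting error only). In 20 members the pooled unlabeled rate exceeded 0.002. Of these Slc35b1, the ATP/ADP exchanger of the endoplasmic reticulum, had the most conversions (71 of 13989 T, rates 0.00571 and 0.00302), followed by the choline carrier Slc44a1 (39 of 10543 T, rates 0.00410 and 0.00255). Their labeled rates were 0.0405, 0.0420 and 0.0406 for Slc35b1 and 0.0406, 0.0421 and 0.0316 for Slc44a1, so for both every labeled rate was above the unlabeled ones. The pooled unlabeled rate of Slc1a6 was 0.0107 (15 of 1407 T, rates 0.0125 and 0.00353), beside labeled rates of 0.0417, 0.0455 and 0.0179.

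Against the median gene of the same library, 2 members had a higher rate (limma on the log2 odds of conversion, Benjamini-Hochberg adjusted p below 0.05), which is 2 of 127 beside 1.44% of all genes. None of the 127 was lower, beside 7.34% of all genes. At an unadjusted p below 0.05 limma placed 5 members above, beside 7.52% of all genes, and 7 below, beside 12.9%. All 3 labeled rates lay above the median gene of their library in 28 members and below it in 17, beside 1789 and 1826 of the 8402 genes.

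The first of the 2 called members was Slc6a6, the taurine carrier of the plasma membrane (chr6:91732039-91736044, plus strand, in the 3′ UTR). Its rates were 0.0466, 0.0470 and 0.0517 in labeled libraries and 0.000506 and 0.000176 in unlabeled ones. The rate of labeled 1 rests on 960 of 20619 T, 95% Wilson interval 0.0438 to 0.0495. The mean of 0.0484 ± 0.0029 (SD, n = 3) exceeded the median gene by 0.34 ± 0.05 on the log2 odds scale (SE; limma adjusted p = 0.00359). A conversion was found in 57.9%, 61.2% and 66.2% of its labeled reads.

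The second was Slc35a1, the Golgi carrier of CMP-sialic acid (chr4:34663257-34664105, minus strand, in the 3′ UTR). Its labeled rates were 0.0483, 0.0569 and 0.0460, all above the upper quartile of gene means (0.0425), and its unlabeled rates were 0.000385 and 0. The mean was 0.0504 ± 0.0058 (SD, n = 3), which is 0.40 ± 0.10 above the median gene on the log2 odds scale (SE; limma adjusted p = 0.0465). Without labeled 1 or without labeled 2 the call of Slc35a1 was lost, with limma adjusted p of 0.163 and 0.293, whereas that of Slc6a6 held without any 1 labeled library. Both calls were lost when the variance was not modelled on coverage (limma adjusted p = 0.200 for Slc35a1 and 0.204 for Slc6a6).

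Among the 31 members with at least 1000 covered T positions in each labeled library, mean rates ran from 0.0302 to 0.0504, with a median CV between labeled libraries of 8.41%. After Slc35a1 and Slc6a6, the highest were Slc35f5 (0.0477), Slc35e1 (0.0443), the zinc, iron and manganese carrier Slc39a14 (0.0436), the ADP/ATP carrier Slc25a5 (0.0419), the glutamine carrier Slc1a5 (0.0414) and Slc35b1 (0.0410). Of these 8 highest, 4 belong to family 35, which had 4 of the 31 members with that coverage. The family was not tested as a set. By the share of reads with a conversion, Slc35b1 lay below the median gene instead (-0.42 on the log2 odds scale, limma adjusted p = 0.0223). Among the lowest were the hexose carrier Slc2a10 (0.0302), Slc38a10 (0.0307), the phosphate carrier Slc20a1 (0.0337), the sodium-calcium exchanger Slc8a1 (0.0342), the zinc carrier of the endoplasmic reticulum Slc39a7 (0.0357), the mitochondrial glutathione carrier Slc25a39 (0.0360) and the nucleobase carrier Slc43a3 (0.0360). None of these 7 passed the test against the median gene with the 100 T minimum. Restricting the test to genes with 1000 covered T called Slc38a10 among the lower and Slc35f5 among the higher members.

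**Figure D2:**
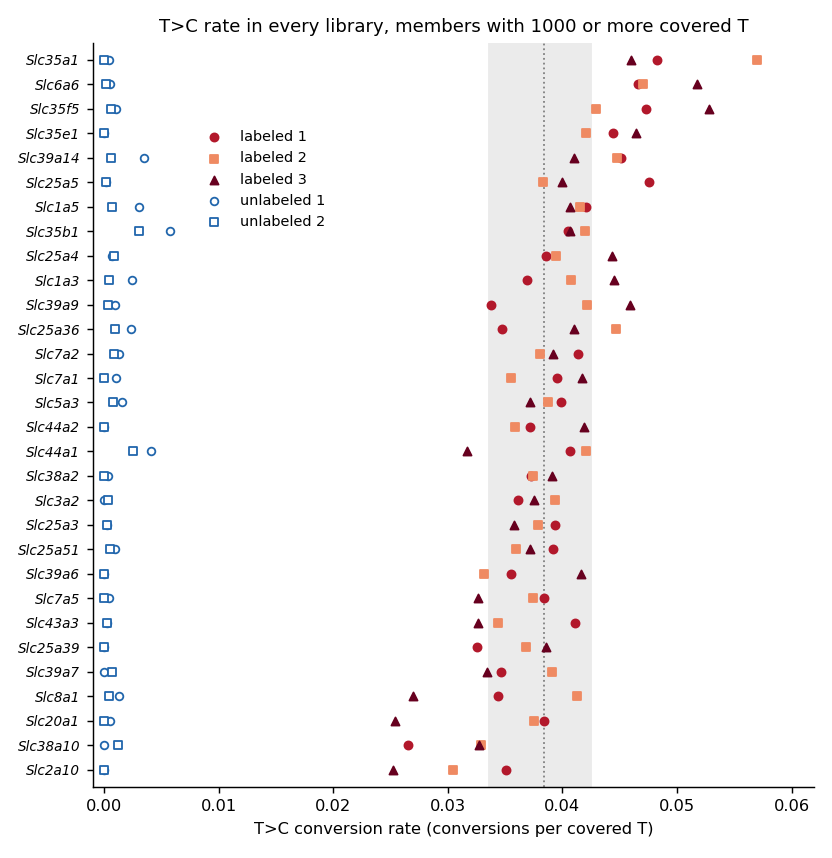
T>C conversion rate (x axis, conversions per covered T) of 30 members with 1000 or more covered T positions in each labeled library, ordered by mean, with filled symbols for the 3 labeled and open symbols for the 2 unlabeled libraries. The grey band runs between the quartiles of all genes (0.0336 to 0.0425) and the dotted line the median gene. Slc35a1, Slc6a6 and Slc35f5 have all labeled values right of the band, and unlabeled values stay below 0.006.

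Carriers of amino acids and related solutes made up 23 members with a median rate of 0.0377 (0.0371, 0.0393 and 0.0375 by library). By their mean 8 lay above the median gene, and 10, 12 and 10 lay above it by library. The group also holds the nucleobase carrier Slc43a3 and the creatine carrier Slc6a8. The heavy chain Slc3a2, which brings light chains to the cell surface, had rates of 0.0361, 0.0393 and 0.0375. Slc7a5, the light chain for large neutral amino acids, had 0.0384, 0.0374 and 0.0326, so the values of both chains overlapped. The cationic amino acid carriers Slc7a1 (0.0389 ± 0.0032) and Slc7a2 (0.0395 ± 0.0017) were close to each other as well. All 5 members of family 7 together had a median of 0.0389, from 0.0361 in Slc7a5 to 0.0409 in Slc7a6os. By the share of reads with a conversion, Slc7a5 lay above the median gene instead of below it (0.96 on the log2 odds scale, limma adjusted p = 0.0122).

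Within family 1 the neutral amino acid exchangers Slc1a5 and Slc1a4 stood at opposite ends. Slc1a5 had rates of 0.0420, 0.0416 and 0.0407. Slc1a4 had 0.0297, 0.0452 and 0.0223, a wide range on 539 or more covered T positions, and its highest value exceeded all 3 of Slc1a5. The sodium-coupled family 38 had a median of 0.0368, with 1 of its 6 members above the median gene by its mean and 1, 2 and 3 by library. The 1 by its mean was Slc38a7, a lysosomal glutamine carrier, with 0.0441, 0.0461 and 0.0604. Slc38a9, the lysosomal arginine sensor of mTORC1, was the lowest with 0.0273, 0.0470 and 0.00909. The deeply covered Slc38a2, a glutamine carrier induced by amino acid shortage, had a tight set of rates at 0.0373, 0.0374 and 0.0391. Slc38a10 had 0.0265, 0.0329 and 0.0327, below each of the rates of Slc38a2.

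Of the members, 7 carry sugars, with a median rate of 0.0431 and a range from 0.0302 in Slc50a1 to 0.0462 in Slc2a1. By library their medians were lower, at 0.0369, 0.0423 and 0.0359, and 3, 4 and 3 lay above the median gene. Slc2a1, the main glucose carrier of most cultured cells, had rates of 0.0475, 0.0423 and 0.0489. Slc2a10 had 0.0351, 0.0304 and 0.0252, without overlap. These paralogs had the highest and lowest mean rates of family 2, so the gap follows in part from how they were picked. The inositol carrier Slc2a13 had 0.0197, 0.0569 and 0.0565 on 124 or more covered T, the widest spread of the family. The monocarboxylate carrier Slc16a1, which moves lactate and pyruvate, had 0.0428, 0.0474 and 0.0423, and Slc16a3, the lactate exporter of glycolytic cells, had 0.0335, 0.0224 and 0.0393, with no overlap between them. The interval of Slc16a3 overlaps Csnk1d on the other strand. Such an overlap was found for 18 members, and the use of strand in counting is not given in the sources used here, so reads of the partners cannot be told apart.

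The mitochondrial family 25 was the largest with 24 members. Its median rate was 0.0397 (0.0397, 0.0394 and 0.0383 by library), and 13 members lay above the median gene by their mean (16, 13 and 12 by library). The phosphate carrier Slc25a3 and the ADP/ATP carriers Slc25a4 and Slc25a5, which serve oxidative phosphorylation, had rates of 0.0393, 0.0379 and 0.0357, of 0.0386, 0.0394 and 0.0444 and of 0.0476, 0.0383 and 0.0399. All of these 9 values lie between 0.0357 and 0.0476. The annotation of GRCm39 holds a transcribed processed copy of Slc25a5, and reads of near-identical copies cannot be told apart here. The citrate carrier Slc25a1 was lowest with 0.0269, 0.0325 and 0.0249. The coenzyme A carrier Slc25a42 was highest with 0.0479, 0.0647 and 0.0397, on 151 or more covered T, so that its values reach into those of other members.

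Family 35, named for nucleotide sugar carriers that load the Golgi and the endoplasmic reticulum with substrates of glycosylation and also holding the ATP/ADP exchanger Slc35b1, had 15 members with a median of 0.0410. The library medians were 0.0405, 0.0405 and 0.0453, and 10 members lay above the median gene by their mean (9, 10 and 13 by library). Pooled over all covered T positions the family had 0.0422, 0.0412 and 0.0451. The UDP-galactose carrier Slc35a2 had 0.0441, 0.0305 and 0.0581 and the UDP-glucuronic acid carrier Slc35d1 0.0423, 0.0417 and 0.0462, on an interval of which 49.3% lies in annotated exons of the gene. Slc35a4 had 0.0356, 0.0418 and 0.0456, and its interval overlaps another gene's exon on the same strand. Slc35f6 was lowest with 0.0288, 0.0402 and 0.0194 and Slc35e2 highest with 0.0463, 0.0421 and 0.0698, and both had fewer than 1000 covered T in a labeled library. With the minimum of 1000, 4 members remained, with a median of 0.0460.

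Metal carriers numbered 22. The zinc exporters and organelle importers of family 30 had a median of 0.0433 with 5 of 6 members above the median gene by their mean (5, 3 and 5 by library), whereas the zinc importers of family 39 had 0.0377 with 4 of 8 above (4, 5 and 3 by library). By library the medians were 0.0414, 0.0395 and 0.0458 for family 30 and 0.0365, 0.0405 and 0.0340 for family 39, so in labeled 2 the order was the other way round. Slc30a1, the zinc exporter of the plasma membrane, was the low member of its family with 0.0313, 0.0373 and 0.0334, and Slc30a6 the high one with 0.0437, 0.0361 and 0.0694. In family 39, the highest and lowest members by mean rate were Slc39a14 (0.0451, 0.0448 and 0.0410) and Slc39a10 (0.0375, 0.0257 and 0.0196). Their lack of overlap follows in part from that choice. Slc39a7 had 0.0347, 0.0391 and 0.0334 and the plasma membrane zinc importer Slc39a1 0.0391, 0.0470 and 0.0335. The iron carrier Slc11a2 had 0.0435, 0.0608 and 0.0275, a range wider than that of any of these zinc carriers except Slc30a6. The copper importer Slc31a1 had 0.05, 0.0356 and 0.0432. The heme carrier Slc48a1 was among the lowest of all members with 0.0335, 0.0258 and 0.0266.

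In all, 14 members carry ions or regulate pH and volume. The potassium-chloride cotransporter Slc12a7 had the highest mean rate of all members, 0.0574 ± 0.0055 (SD, n = 3), and the sodium-proton exchanger Slc9a8 the lowest, 0.0252 ± 0.018. Both rest on few T positions. In labeled 1 the rate of Slc12a7 was 0.0547 (7 of 128 T, 95% Wilson interval 0.0267 to 0.109). Slc9a8 had 0.00485 (1 of 206 T, 95% Wilson interval 0.000857 to 0.0270) in labeled 2, while its rates in labeled 1 and 3 were 0.0315 and 0.0394. The highest and the lowest mean of the list thus both come from members with low coverage. Slc12a2, the sodium-potassium-chloride cotransporter, had 0.0354, 0.0388 and 0.0341, and the potassium-chloride cotransporter Slc12a4 had 0.0294, 0.0369 and 0.0400. The bicarbonate carrier Slc4a7 had 0.0552, 0.0418 and 0.0601, all above the median gene. Slc8a1 had 0.0343, 0.0413 and 0.0270 and Slc20a1 0.0384, 0.0375 and 0.0254.

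**Figure D3:**
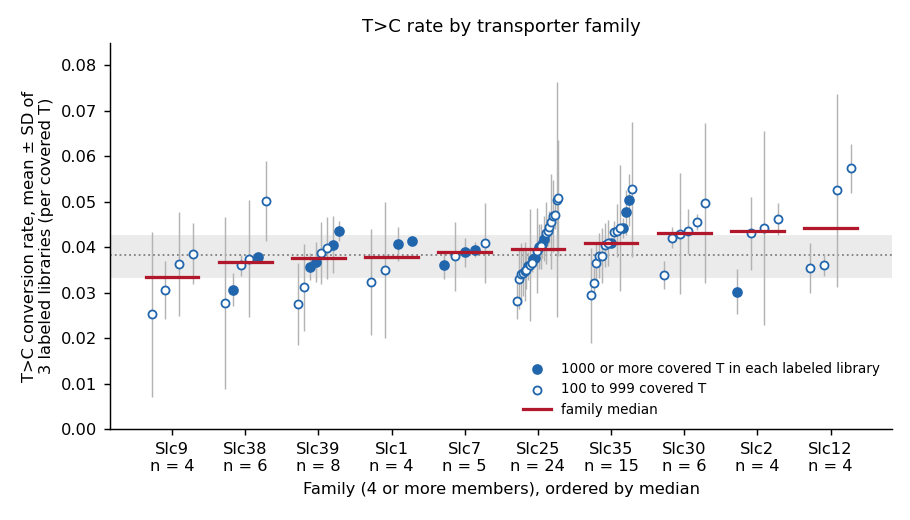
T>C conversion rate (mean ± SD of 3 labeled libraries, conversions per covered T) of each member in the 10 families with 4 or more members, with red bars at the family medians and filled points for members with 1000 or more covered T positions in each labeled library. The grey band runs between the quartiles of all genes. Family medians run from 0.0335 (Slc9) to 0.0443 (Slc12), and members of the same family spread around them.

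Smaller groups held the rest. The 7 carriers of lipids, choline and acyl groups had a median of 0.0383, and the choline-like carriers Slc44a1 and Slc44a2 had means of 0.0381 ± 0.0057 and 0.0383 ± 0.0032. The 4 vitamin carriers had a median of 0.0403. The thiamine carrier Slc19a2 had 0.0425, 0.0407 and 0.0426, within a narrow range, while the riboflavin carrier Slc52a2 had 0.0244, 0.0385 and 0.0224. The nucleoside carriers Slc29a1 and Slc29a3 had 0.0396, 0.0345 and 0.0278 and 0.0404, 0.0349 and 0.0256. The inositol carrier Slc5a3 had 0.0399, 0.0387 and 0.0372. Slc4a1ap, Slc7a6os and Slc9a3r2, which are not carriers, had means of 0.0348, 0.0409 and 0.0386, and leaving them out left the median over members at 0.0386.

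At the threshold of 100 covered T, the members just inside were Slc25a14 (100 in its shallowest labeled library), Slc12a7 (110) and Slc41a3 (111), and the names just outside were Slc45a4 (95), Slc22a17 (94) and Slc25a40 (94). Slc25a14 had 0.05, 0.0432 and 0.0364 and Slc41a3 0.0360, 0.0372 and 0.0321. Slc22a17 had 0.0106, 0.00709 and 0.00943, all below the lowest mean of any member, and Slc45a4 had 0.0359, 0.0484 and 0.0105. The lack of members with rates below 0.025 therefore holds for the names above the threshold only. At 100 T a single rate is loose, as in labeled 1 of Slc25a14 with 0.05 (5 of 100 T, 95% Wilson interval 0.0215 to 0.112). At least 10 conversions were counted in each labeled library for 93 of the 127 members.

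Names without enough coverage were spread over many families. No labeled library held a read for 134 of the 375 names. Families 13, 14, 28, 32, 34 and 51, with carriers of sulfate, urea, nucleosides, inhibitory amino acids, phosphate and steroids, had no member. Neither had families 24, 40, 46 and 47. In family 22, the organic cation and anion carriers, 0 of 25 names were members and 18 had no read in a labeled library. In family 6, 3 of 21 names were members, which were Slc6a6, the creatine carrier Slc6a8 and the glycine carrier Slc6a9. Of the carriers picked by role, Slc7a11, the cystine-glutamate exchanger, had 15, 6 and 2 reads and the iron exporter Slc40a1 9, 20 and 3 reads in labeled libraries, so both fell short of the coverage.

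The level of a member is given in CPM on its interval. The libraries prime at the 3′ end of polyadenylated RNA, about 1 fragment per transcript, so no length scaling was applied. The median member had a level of 49.7 (quartiles 26.9 and 89.1), against 47.4 over all genes with the same coverage. The 8 highest members held 35.2% of the summed level of the 127. Slc25a4 was highest with 1090.1, 529 and 539 in labeled and 1171 and 552 in unlabeled libraries. Both libraries numbered 1 were about as high as each other and lay above the other 3. Slc25a5, another ADP/ATP carrier, had 433, 453 and 368 and 303 and 286, without that split. Slc25a3 had 494, 600.0 and 666 in labeled and 592 and 664 in unlabeled libraries.

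Slc6a6 was the second highest member with 635, 685 and 779 in labeled libraries and 446 and 449 in unlabeled ones. Every labeled value was above both unlabeled values. The ATP/ADP exchanger Slc35b1 had 465, 299.6 and 342 and 364 and 203, and Slc39a7 had 269, 416 and 397 and 245 and 315. Its interval overlaps another gene's exon on the same strand. Slc43a3 had 239, 314 and 304 in labeled and 367 and 465 in unlabeled libraries, and every labeled value was below both unlabeled values.

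**Figure D4:**
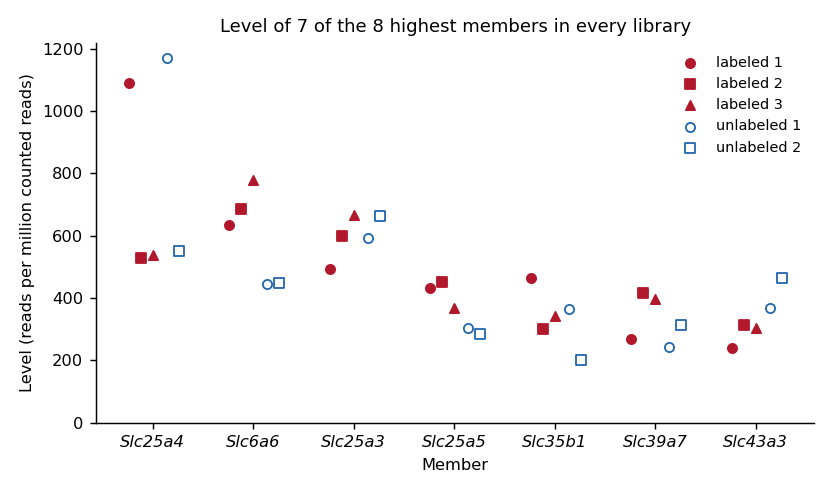
Level (y axis, CPM) of 7 of the 8 members with the highest mean level in each of the 3 labeled (filled) and 2 unlabeled (open) libraries. Slc25a4 has 1090.1 and 1171 in the libraries numbered 1 and at most 552 in the other 3, and Slc6a6 has all labeled values above the unlabeled ones.

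Some of the carriers picked by role followed the libraries numbered 1 in level. Slc3a2 had 86.3, 235 and 184 in labeled and 44.5 and 136 in unlabeled libraries, and its lowest values are those of the libraries numbered 1. Slc16a1 had 77.4, 27.6 and 37.5 and 79.8 and 26.1, with its highest values in those libraries, and Slc16a3 had 8.25, 23.4 and 41.5 and 9.22 and 31.1, with its lowest values there. Over all 127 members, the median CV between labeled libraries was 24% for the level and 15% for the rate. Slc38a2 had 269 ± 38.3 (SD, n = 3), Slc1a5 131 ± 19.2, Slc2a1 85.4 ± 13.0, Slc44a2 114 ± 49.1, Slc39a14 96.4 ± 23.2 and Slc30a1 71.9 ± 10.8.

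Reads were compared between labeled and unlabeled libraries to see whether S4U went along with other transcript levels. No member passed in either direction in this unpaired comparison. Of 125 members tested, edgeR's quasi-likelihood test called 0 higher and 0 lower at an adjusted p below 0.05, and it called 0% of all 9807 genes in each direction. DESeq2 called 0 of the members in either direction, beside 13 genes with more reads and 7 with fewer among the 9807, and its unadjusted p was below 0.05 for 5 members with more reads, beside 2.02% of all genes, and for 2 with fewer, beside 2%. Without adjustment, p from edgeR was below 0.05 for 8 members with more reads in labeled libraries, beside 2.84% of all genes, and for 2 with fewer, beside 3.11%. Slc12a7 and Slc8b1 had too few reads for the test. With the replicate number as a block, edgeR called 12 members higher and 4 lower, beside 5.38% and 6.30% of all genes. That fit leaves 1 residual degree of freedom, and the numbers are not shown to pair the libraries.

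The members' log2 fold changes had a median of 0.19, with 88 of 125 (70.4%) above 0, against 0.02 and 51.8% over all genes tested. All labeled libraries lay above both unlabeled ones in 22 members (17.6%), beside 8.2% of all genes, and below both in 9 (7.2%), beside 13.1%. Because members were required to have covered T positions in labeled libraries, this excess supports nothing by itself. Over the 147 Slc names that could be tested whatever their coverage, the median was 0.17, with 68.0% above 0. Over all genes with the members' coverage it was 0.04, with 53.8% above 0.

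The smallest p in the upward direction belonged to Slc2a13, which had 19, 9 and 6 reads in labeled and 4 and 3 in unlabeled libraries (log2 fold change 2.08 ± 0.60, SE, edgeR adjusted p = 0.658). Slc19a2 had levels of 57.7, 41.8 and 49.4 against 28.2 and 21.1 (1.08 ± 0.32, edgeR adjusted p = 0.677). Slc30a1 had levels of 84.4, 66.1 and 65.2 against 45 and 41.2 (0.82 ± 0.28, edgeR adjusted p = 0.730). For these, as for Slc6a6 (0.72 ± 0.25, edgeR adjusted p = 0.730) and the fatty acid carrier Slc27a3, with 70.7% of its interval in exons (1.24 ± 0.44, edgeR adjusted p = 0.758), labeled and unlabeled levels did not overlap, yet none passed after adjustment in the unpaired comparison. With the replicate number as a block, each of them gained a call as higher.

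In the other direction Slc12a2 had the smallest p of all members, with levels of 33, 33.5 and 29.6 in labeled and 72.7 and 90.3 in unlabeled libraries. Every labeled value was below both unlabeled values (log2 fold change -1.26 ± 0.28, SE, edgeR adjusted p = 0.543). Slc1a5 had 133, 149 and 111 against 207 and 243 (-0.70 ± 0.25, edgeR adjusted p = 0.742). The next were Slc44a1 (-0.62 ± 0.27), Slc43a3 (-0.47 ± 0.27) and Slc37a3 (-0.53 ± 0.34), with edgeR adjusted p between 0.858 and 0.985. With the replicate number as a block, Slc12a2 (edgeR adjusted p = 2.6e-06), Slc1a5, Slc44a1 and Slc43a3 gained a call as lower. The mean T>C rates of Slc12a2 and Slc1a5 were 0.0361 and 0.0414, both between the quartiles of all genes.

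**Figure D5:**
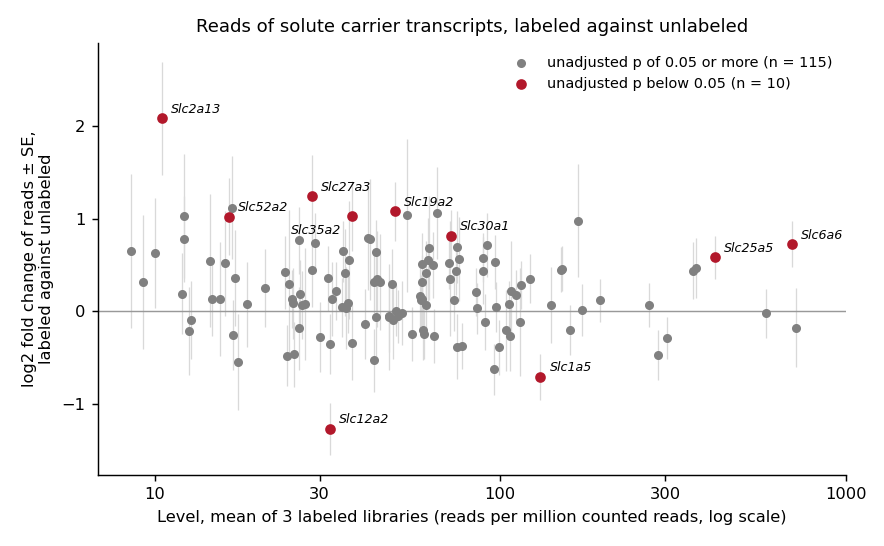
log2 fold change of reads between labeled and unlabeled libraries (y axis, ± SE, edgeR) against the mean labeled level (x axis, CPM, log scale) for the 125 members tested. The 10 members with an unadjusted p below 0.05 are in red and named, 8 above and 2 below 0, and none passed after adjustment over 9807 genes in the unpaired comparison.

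By group, the median log2 fold change was 1.05 over 4 vitamin carriers, of which 3 were above 0. It was 0.49 over the 8 zinc importers of family 39, which were all above 0. Over the 23 carriers of amino acids and related solutes it was 0.25, over 24 mitochondrial carriers 0.22 and over the 6 members of family 30 0.02. It was 0.14 over 15 members of family 35 and 0.07 over 7 carriers of lipids and acyl groups. Over 12 carriers of ions, of which 6 were above 0, it was -0.0050, and over 3 monocarboxylate carriers -0.06. Of all genes tested with the members' coverage, 53.8% were above 0. As members were chosen by coverage in labeled libraries, these counts support nothing by themselves. The summed level of the 23 carriers of amino acids and related solutes was 2713, 2869 and 2877 in labeled and 2561 and 2588 in unlabeled libraries. Slc6a6 alone took 635, 685 and 779 of the labeled sums and 446 and 449 of the unlabeled ones. The nucleobase carrier Slc43a3, counted in this group, took 239, 314 and 304 of the labeled sums and 367 and 465 of the unlabeled ones. For the mitochondrial carriers the sums were 3141, 2812 and 2747 and 3208 and 2634, with overlap.

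Carriers and partner proteins whose names lack Slc with a family number gave a wider range of rates. Of a list of 25 such genes, 20 had the coverage, with a median rate of 0.0409, and limma called 4 of the 20 below the median gene, beside 7.34% of all genes. Bsg, the chaperone that Slc16a1 and Slc16a3 need to reach the cell surface, had rates of 0.0148, 0.0103 and 0.00759 (limma adjusted p = 9.6e-05), below every rate of both carriers. Emb, the related chaperone, had 0.0161, 0.0176 and 0.0215 (limma adjusted p = 0.000227), likewise below both. The others were Mtch1, a protein of the outer mitochondrial membrane related to the carriers of family 25 (0.0305, 0.0287 and 0.0288), and Atf4, a transcription factor that induces many amino acid carriers (mean 0.0333).

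The intervals of the members differed little from other genes in the letters searched. In 123 of the 127 members over 90% of the interval lies in annotated exons of the gene. The exceptions were Slc1a6 (78.6%), Slc27a3 (70.7%), Slc35d1 (49.3%) and Slc4a1ap (6.79%), whose intervals thus lie in part outside annotated exons. The intervals were 210 to 15586 bases long (median 1649), with 19.6% to 36.9% T (median 28.3%). In the last 500 bases of the 114 intervals of that length, the AU-rich core TATTTAT was present on the transcript strand in 14 members (12.3%) and in 15.9% of 6618 genes. The Pumilio-type motif TGTANATA was present in 14 (12.3%) and in 15.5% of genes, and AATAAA in 89 (78.1%) and in 78.2%. Members with TATTTAT had a median rate of 0.038 and those without it 0.0386, and for TGTANATA the medians were 0.0388 and 0.0386. Windows around TATTTAT (in capitals, GRCm39) are shown for a member with a low and a member with a high rate.
Slc38a10, chr11:119994788-119994817, minus strand: ctcttgaaataTATTTATtacaattaaatt
Slc2a1, chr4:118994381-118994410, plus strand: tagatggaagaTATTTATatattttttggt
Slc38a10 had a mean rate of 0.0307 and Slc2a1 of 0.0462, so the same letters stood beside both. Across the 127 members, the rate had a Spearman rho of 0.22 with the T content of the interval, -0.06 with its length and -0.08 with the level, given as descriptions over genes that share the same libraries.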

How the data were processed

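The libraries were made with QuantSeq 3′ FWD and unique molecular identifiers from CF cultured with or without S4U. Per the labels and methods, the authors removed duplicate molecules with umi-tools and processed the reads with SLAM-DUNK 0.4.3 on mm39 (GRCm39). The deposited tables list 97442 rows (40428 distinct intervals) per library with counts of reads, covered T positions and conversions, the conversion rate as a fraction deposited by the authors, and CPM values that the authors scaled to their own read totals. The deposited rate equals conversions over covered T. Per the methods, the authors discarded reads that lacked a full molecular identifier or spacer before mapping, and left transcripts with no covered T in a sample out of their own test.

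From these files, 1 interval per gene was kept (highest mean CPM in labeled libraries) and levels were scaled to the reads on those intervals. Rates were compared between groups with a beta-binomial likelihood-ratio test, and with the median gene by limma 3.58.1 on log2 odds (pseudocount 0.5, variance trend on coverage). Reads were compared with edgeR 4.0.16 (TMM, filterByExpr, quasi-likelihood) and, as an alternative, DESeq2 1.42.0 in R 4.3.3. P-values were adjusted by Benjamini-Hochberg over all genes tested. The scripts of these tests were tested on simulated data. Intervals were annotated with GENCODE vM39, where 126 members matched by symbol and 1 (Slc9a3r2) by position. Wilson intervals and floors of 3 conversions cover counting error only. They treat each covered T as independent although a read can cover several, so they may be too narrow.

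The members and lists were chosen with earlier results of these data known. Named members were those with the 8 highest and 8 lowest rates at 1000 or more covered T, the 8 highest levels, the 5 smallest p of reads in each direction, a list by role, the extremes of families with 4 or more members and the 3 names on each side of the coverage threshold. Some members that this rule names are not reported here. Other members named in the text were chosen after their values were seen. Alternatives covered the coverage minimum, pseudocount, variance trend, background subtraction, share of reads with a conversion, normalization, filters, the replicate block and each library left out in turn.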

Additional observations from a re-analysis of the deposited data

How the results depend on the processing

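The labeled and unlabeled rates stayed apart under every setting tried for the beta-binomial comparison, with 125 to 127 members called when 1 library was left out. With 1000 covered T required in every library, 30 members were tested and called. For the comparison with the median gene, the count above it (2) was 0 without the variance trend, 3 of 31 with 1000 covered T, 18 with the share of reads carrying a conversion, and 1 to 2 when a labeled library was left out. The count below it (0) was 2 with 1000 covered T, 1 with a pseudocount of 1, 1 after subtraction of the unlabeled rate, 17 with the share of reads, and 0 to 1 when a labeled library was left out. With 1000 covered T, 10.1% of all genes were called above and 21.1% below, beside 9.68% and 6.45% of the members. With a pseudocount of 1 and after subtraction, 7.72% and 7.18% of all genes were below. With the share of reads, 11.4% of all genes were called above and 16.7% below, beside 14.2% and 13.4% of the members. In that setting, Slc25a4 (-0.33), Slc35b1 (-0.42), Slc7a5 (0.96) and Slc9a3r2 (-0.95) reversed their sign on the log2 odds scale. Their limma adjusted p ran from 0.0122 to 0.0324, and the cause was not tested. That share also depends on how many T a read covers. The median rate was 0.0381 after subtraction of the unlabeled rate. With 1000 covered T, fewer members remain and the values of the families were 0.0302 (Slc2, 1 member), 0.0389 (Slc25, median of 6), 0.0460 (Slc35, median of 4) and 0.0343 (Slc38, median of 2). When a labeled library was left out, the family medians ran from 0.0384 to 0.0447 (Slc2), from 0.0379 to 0.0403 (Slc7), from 0.0308 to 0.0369 (Slc9), from 0.0394 to 0.0469 (Slc12), from 0.0388 to 0.0397 (Slc25) and from 0.0387 to 0.0429 (Slc35). The median level was 4.22 as deposited CPM, which has another denominator, and 50.7 to 51.4 when a labeled library was left out.

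No member was called for reads in the unpaired edgeR fit, with or without any 1 library. With the replicate number as a block, which leaves 1 residual degree of freedom, 12 members (9.60%) were called higher and 4 (3.20%) lower, beside 5.38% and 6.30% of all genes. Of the members described for their reads, Slc2a13, Slc19a2, Slc30a1, Slc6a6 and Slc27a3 gained a call as higher, and Slc12a2, Slc1a5, Slc44a1 and Slc43a3 as lower (edgeR adjusted p between 2.6e-06 for Slc12a2 and 0.0262 for Slc27a3). Deviations from the group means correlated by 0.784 between labeled 1 and unlabeled 1 by 0.638 between labeled 2 and unlabeled 2, and by 0.482 between labeled 3 and unlabeled 2, which share no number. The deviations of the unlabeled libraries mirror each other, so these values are not independent. With only 2 shared numbers, the numbers are not shown to pair the libraries. The median log2 fold change of reads, an alternative chosen after seeing the data, kept its sign in every fit and ran from 0.15 to 0.27 when a library was left out. Among the named members, 341 settings of the rate left the result on the same side, 23 moved it without a test changing, 15 made it pass, 4 made it fail and 4 reversed it. For reads, where no member had passed and none could fail, 499 stayed, 31 moved and 14 passed. Depth limits members near 100 covered T most.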
